A study of Mus musculus with 6 samples.

Results

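Respiratory complex I was followed through the 46 protein-coding genes whose names start with Nduf, of 22058 protein-coding genes and 54320 genes in all in both expression tables. By name, 38 encode subunits and 8 encode assembly factors (Ndufaf1 to Ndufaf8). Ndufa4, now assigned to cytochrome c oxidase, and its paralog Ndufa4l2 were counted with the 38 by their names and are described on their own below. All 46 genes reached a mean of 0.5 FPKM over the 6 libraries, the level above which genes were tested. Ndufs3 did so only through flox 2. FPKM, the unit of every level here, are scaled by gene length and library size, so levels are per length. The library size used for this was not the number of reads assigned to genes. It was larger in every HKO library than in every flox library, as given under processing. Fold changes are differences of log2(FPKM + 0.5), a scale that understates the change of low genes.

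Complex I is the entry point of electrons from NADH into the mitochondrial respiratory chain, and it pumps protons across the inner membrane. Its core and accessory subunits are encoded in the nucleus, apart from a set of membrane-arm core subunits encoded in mitochondrial DNA. Assembly factors join intermediates of the matrix and membrane arms and are absent from the finished enzyme, which in liver serves the oxidation of fatty acids, amino acids and sugars.

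The livers of 6 C57BL/6 mice were compared, with 3 libraries per group. The control group, called flox, was HuR flox/flox. The group labelled HKO was HuR flox/flox with Alb-Cre+/-, in which the albumin promoter drives Cre recombinase in hepatocytes, so other liver cells are expected to keep the HuR gene. HuR, encoded by Elavl1, binds messenger RNA. Every mouse was 11 weeks old and had eaten a diet labelled MCD for 3 weeks, and no group on another diet was analysed here. The comparison addresses which liver transcripts differ with hepatocyte HuR on this diet. The labels give no litter, batch or date, and p-values measure only the spread between these samples.

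Libraries held 16769082 to 20633215 reads assigned to genes, and flox 2 stood apart from the rest. Flox 2 had reads in 16608 genes, against 19920 to 22067 elsewhere, and mitochondrial genes took 2.26% of its reads where the others had 4.34% to 4.69%. Its values went up by 0.79 on the log2 scale for each 10% of transcript GC content, while flox 1 had a slope of 0.25 and the other 4 libraries had slopes of -0.28 to -0.22. Elavl1 was no lower in HKO than in flox, at 3.51, 2.36 and 2.99 FPKM in flox livers 1, 2 and 3 against 5.77, 4.28 and 4.91 FPKM in HKO livers 1, 2 and 3 (log2 fold change 0.67, SE 0.23, limma with Benjamini-Hochberg adjustment over all tested genes, adjusted p = 0.208), and with length and GC trends removed the difference was 0.06. The groups below are therefore called by their labels alone, and HKO means the libraries so labelled. Hepatocyte markers summed to 45635 to 58647 FPKM in flox livers and 47475 to 60278 FPKM in HKO livers, and all 8 were detected. Of the tissues rich in mitochondria, striated muscle markers summed to at most 3.27 FPKM with Myh6 at 0 in every library, and adipocyte markers to at most 0.646 FPKM. Pancreas markers reached 2513 FPKM in HKO 3 and at most 24.7 FPKM in the others.

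Promoters were searched for motifs of factors known to act on respiratory chain genes. RefSeq promoters on GRCm38.p6, from 250 bases before to 50 bases after the annotated start, matched 40 of the 46 genes by symbol, 33 subunits and 7 assembly factors. On either strand, the NRF1 motif GCGCANGCG was present for 8 of 33 subunits (24.2%), against 7.03% of 27025 genes. The YY1 motif AAGATGGC was present for 7 subunits (21.2%), against 3.19%. The ETS family motif CCGGAAG was present for 4 subunits (12.1%), against 9.93%, and the estrogen-related receptor motif TCAAGGTCA for 0, against 0.466%. All 7 YY1 matches lay on the plus strand after the start, a place that held the motif in 1.04% of all genes. Subunit promoters had a median GC content of 59.0%, against 52.7% for all promoters. These are letter matches and not measured binding. The promoter of Ndufs6 is shown because it holds both an NRF1 and a YY1 match, that of Ndufb4 because it holds 3 NRF1 matches, and that of Ndufaf4 because this assembly factor carries NRF1 matches as well. Capitals mark motif matches, and the last 50 bases follow the start. For Ndufaf4 a match on each strand overlaps the other. For Ndufs6 the NRF1 match begins 15 bases before the start and the YY1 match at base 34 after it.
Ndufs6, chr13:73328433-73328732, minus strand: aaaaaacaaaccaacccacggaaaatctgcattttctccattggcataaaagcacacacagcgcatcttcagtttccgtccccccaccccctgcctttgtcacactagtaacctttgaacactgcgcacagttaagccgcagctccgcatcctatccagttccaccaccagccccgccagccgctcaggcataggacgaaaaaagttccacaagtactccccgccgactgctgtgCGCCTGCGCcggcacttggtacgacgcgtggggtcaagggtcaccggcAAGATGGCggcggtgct
Ndufb4, chr16:37654319-37654618, minus strand: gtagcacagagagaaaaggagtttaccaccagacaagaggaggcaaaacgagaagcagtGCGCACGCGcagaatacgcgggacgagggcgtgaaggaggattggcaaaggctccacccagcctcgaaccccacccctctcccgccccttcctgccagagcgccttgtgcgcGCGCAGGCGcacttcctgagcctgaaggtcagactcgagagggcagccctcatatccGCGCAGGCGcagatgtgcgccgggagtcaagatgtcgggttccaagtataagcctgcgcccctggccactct
Ndufaf4, chr4:24897833-24898132, plus strand: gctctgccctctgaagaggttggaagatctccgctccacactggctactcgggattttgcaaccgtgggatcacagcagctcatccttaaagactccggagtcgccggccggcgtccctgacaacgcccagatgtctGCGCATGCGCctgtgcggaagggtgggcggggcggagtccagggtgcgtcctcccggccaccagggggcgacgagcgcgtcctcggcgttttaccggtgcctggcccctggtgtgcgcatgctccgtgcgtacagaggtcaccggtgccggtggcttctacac

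Fold changes of subunit genes lay below 0 nearly throughout, and those of assembly factor genes were divided. Of 38 subunits, 37 had a log2 fold change below 0 (HKO minus flox), with a median of -0.65 and a range of -1.18 to 0.45. Without Ndufs3, which was listed at 0 in most libraries, Ndufa4 and Ndufa4l2, 34 of 35 were below 0, with a median of -0.64. Of 8 assembly factors, 4 were below 0 and 4 above, with a median of 0.05. In 33 of 38 subunits every HKO library lay below every flox library, a pattern held by 16.7% of all 13787 tested genes, and in 0 subunits every HKO library lay above, against 15.3%. For assembly factors the counts were 2 lower (Ndufaf2 and Ndufaf8) and 1 higher (Ndufaf4). In RNA from whole liver, fewer cells of a type and less RNA per cell cannot be told apart.

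Gene by gene, no difference passed the threshold. At a Benjamini-Hochberg adjusted p of 0.05 over all tested genes in limma, 0 of 46 complex I genes were called in either direction, while 1 gene was lower and 1 higher among all tested (0.00725% each). At an unadjusted p under 0.05, 19 subunits were lower and 0 higher, against 10.8% of all genes lower and 10.1% higher. Run with voom on the recovered reads, limma also called 0 members, with 1 subunit lower and 1 higher at an unadjusted p under 0.05 (2.65% of all genes lower and 21.9% higher, on a scale where the median of all genes stood at 0.32). The lowest adjusted p of any member was 0.159. The spread was unequal between groups. The median SD over 3 libraries, on the log2 scale, was 0.44 for subunits in flox and 0.07 in HKO, and flox 2 was the highest of the 6 libraries for 33 of 38 subunits. Without flox 3, which was the lowest flox library for 32 of the 38, 27 subunits passed as lower and 1 as higher, but 19.5% and 21.1% of all genes passed as well. Without flox 2, 0 subunits passed (0.00726% of all genes each way). In that fit 16 subunits were lower at an unadjusted p under 0.05, against 9.25% of all genes, and the subunit median was -0.47.

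Short, abundant genes shared much of the pattern. Subunit genes are short, with a median table length of 1438 bases against 3561 for all tested genes, and had a median level of 61.2 FPKM against 3.96. Among 740 protein-coding genes of at most 2000 bases and at least 20 FPKM, limits chosen after values were seen, 82.6% had a fold change below 0, with a median of -0.59, and 41.8% had every HKO library below every flox library. Within the subunits the 24 of at most 2000 bases had a median of -0.78 and the 14 longer ones of -0.61. Of the protein-coding genes of at most 2000 bases at any level, 27.7% had every HKO library below every flox library.

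**Figure D1:**
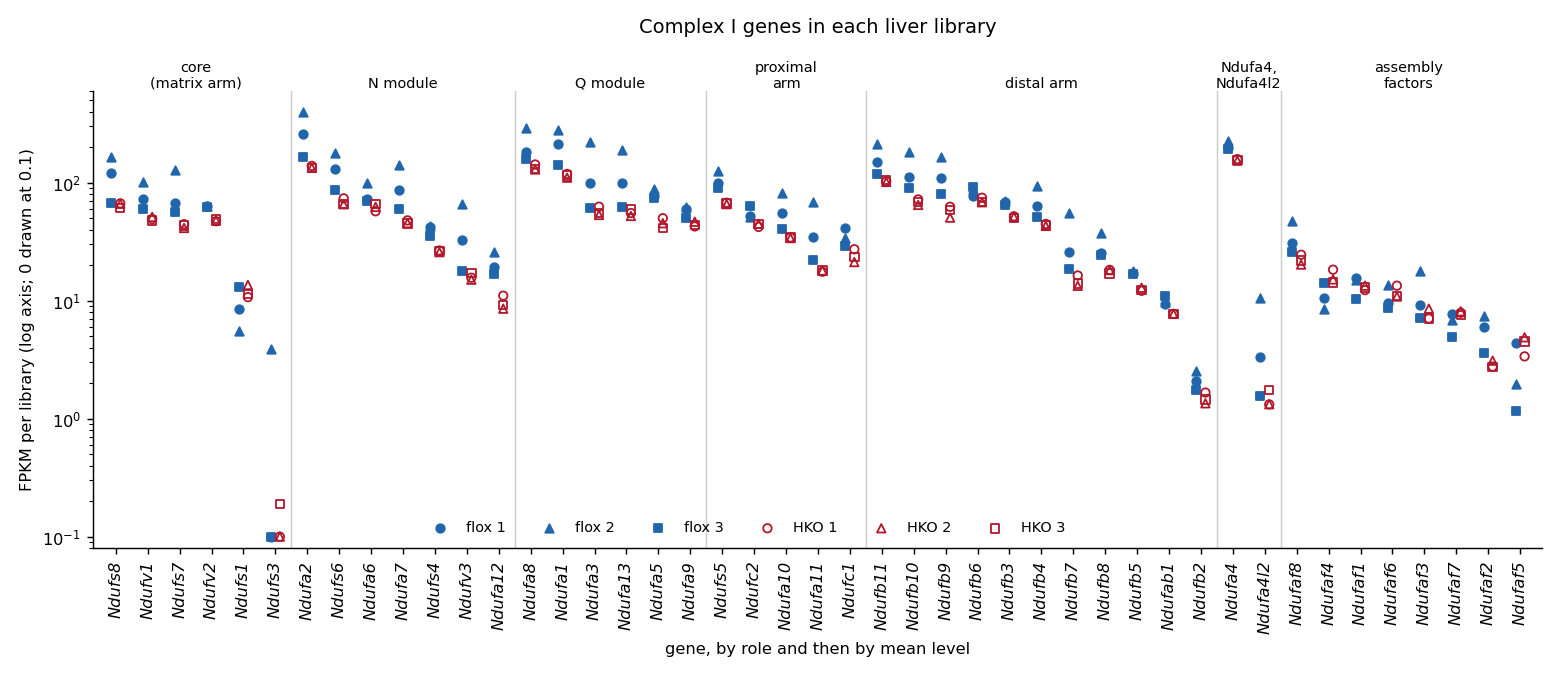
FPKM of 45 of the 46 genes (log axis, 0 drawn at 0.1) in the 3 flox libraries (filled) and the 3 HKO libraries (open), grouped by role and ordered by mean level. The HKO libraries lie close together and below flox for 32 of the 37 subunits drawn, flox 2 is often highest, and the assembly factors mix.

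Nuclear core subunits, which carry the flavin, the iron-sulfur clusters and the quinone site of the matrix arm, had a log2 fold change below 0 (HKO minus flox) for 6 of 7, with a median of -0.63. Ndufs3, which could not be read at its own position and was below 0 only through flox 2, is among the 6. It also enters the core medians. Without flox 2, 5 of 7 core subunits were below 0, with a median of -0.43. With length and GC trends removed the core median was -0.14, and with the mean level trend removed as well it was 0.015, with 2 of 7 below 0. Ndufv1 (chromosome 19 from 4007497 to 4012806 of GRCm38.p6, minus strand), which binds NADH and flavin, had 73.3, 101 and 60.4 FPKM in flox livers 1, 2 and 3 against 49.1, 51.3 and 47.9 FPKM in HKO livers 1, 2 and 3. The groups did not overlap and flox 2 was highest. The difference was -0.63 on the log2 scale (SE 0.24, limma adjusted p = 0.226, from 0.0249 without flox 3 to 0.958 over the alternatives). Ndufv2, an iron-sulfur subunit beside it (chromosome 17 from 66078795 to 66101559, minus strand), had 63.0, 63.3 and 62.2 FPKM in flox livers against 47.1, 47.6 and 49.4 FPKM in HKO livers. Here the flox libraries were nearly equal and the HKO libraries all lower, with 62.8 ± 0.558 FPKM (SD, n = 3) in flox and 48.1 ± 1.17 FPKM (SD, n = 3) in HKO. The difference was -0.38 on the log2 scale (SE 0.18, limma adjusted p = 0.266, from 0.0234 without flox 3 and with length and GC trends removed to 0.974).

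Iron-sulfur subunits nearer the quinone site had fold changes below 0 that did not pass and were nearer 0 with trends removed. Ndufs7, which holds the last iron-sulfur cluster before quinone, had 67.8, 129 and 56.8 FPKM in flox livers against 44.5, 41.3 and 43.3 FPKM in HKO livers. Its groups did not overlap, although flox 2 was far above the other flox libraries (-0.87, SE 0.33, limma adjusted p = 0.219, from 0.0280 without flox 3 to 0.911). Ndufs8, another iron-sulfur subunit, had 121, 166 and 66.8 FPKM in flox livers against 66.9, 66.3 and 61.4 FPKM in HKO livers. Flox 3 lay within the HKO range, and the log2 fold change was -0.76 (SE 0.35, limma adjusted p = 0.258, from 0.0146 without flox 3 to 0.965). With length and GC trends removed the values of Ndufs7 and Ndufs8 were -0.085 and -0.14, and with the mean level trend removed as well 0.043 and 0.015.

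Ndufs1, the large iron-sulfur subunit that passes electrons on from Ndufv1, was the exception among the subunits. It lies on chromosome 1 from 63143596 to 63176833 (minus strand) and is the longest subunit gene in the tables, at 8086 bases. Its level was 8.47, 5.54 and 13.1 FPKM in flox livers against 10.7, 13.6 and 11.4 FPKM in HKO livers, so the groups overlapped and flox 2 was lowest. The difference was 0.45 on the log2 scale (SE 0.32, limma adjusted p = 0.416, from 0.0435 without flox 3 to 0.963). Without flox 3 Ndufs1 passed as higher, with a log2 fold change of 0.75, and with each library's length and GC trends removed it was 0.18.

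Ndufs3, a core subunit next to the quinone site, could not be read at its own position. It was listed at 0, 3.88 and 0 FPKM in flox livers against 0, 0 and 0.189 FPKM in HKO livers on chromosome 2 from 90894634 to 90904827 (minus strand). Of the 7 genes beside it there, 6 were listed at 0 in every library, the widely expressed Kbtbd4 and Celf1 among them, and the highest value of any was 0.0177 FPKM. An unnamed gene of 957 bases on a patch scaffold of the assembly, from 90894628 to 90904730, carries a description of the same protein family in the tables. It had 2.82, 46.9 and 21.3 FPKM in flox livers against 46.6, 16.6 and 2.34 FPKM in HKO livers, with no order between groups. Whether reads of Ndufs3 were assigned to that scaffold was not tested. The fold change of Ndufs3 (-0.89, SE 0.85, limma adjusted p = 0.534) rested on flox 2 and was 0.15 without it, with adjusted p from 0.220 to 0.929 over the alternatives.

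Accessory subunits of the NADH-oxidizing module, which surrounds the flavin end of the matrix arm, had the lowest median of the roles, at -0.93, and in 7 of 7 every HKO library was below every flox library, as in 16.7% of all tested genes and 41.8% of the short, abundant ones. The median was -0.49 with length and GC trends removed. Ndufa12 (chromosome 10 from 94198955 to 94221443, plus strand), which takes the place of the assembly factor Ndufaf2 late in assembly, had 19.3, 25.9 and 16.9 FPKM in flox livers against 11.0, 8.56 and 9.16 FPKM in HKO livers. All HKO libraries lay clearly below, and this was the smallest p of any member (-1.06, SE 0.24, limma adjusted p = 0.159, from 0.0147 without flox 3 to 0.532). Ndufa2, a thioredoxin-like subunit with the highest mean level of all members, had 257, 399 and 166 FPKM in flox livers against 139, 134 and 133 FPKM in HKO livers. The difference was -0.93 on the log2 scale (SE 0.34, limma adjusted p = 0.214, from 0.0151 without flox 3 to 0.567). Ndufv3, bound to the Ndufv1 and Ndufv2 pair, had 33.0, 65.6 and 17.98 FPKM in flox livers against 15.7, 15.1 and 17.2 FPKM in HKO livers. Flox 3 was close to the HKO range, and the log2 fold change was -1.07 (SE 0.45, limma adjusted p = 0.239, from 0.0169 without flox 3 to 0.599). The other 4, Ndufs4, Ndufs6, Ndufa6 and Ndufa7, had values of -0.95 to -0.37. The value of Ndufa6 was 0.17 with length and GC trends removed and 0.31 with the mean level trend removed as well.

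Accessory subunits of the quinone module and of the part of the membrane arm next to it, taken as 1 group, had a median of -0.82. Every HKO library was below every flox library for 5 of 6 (16.7% of all tested genes, 41.8% of the short, abundant ones). Removal of length and GC trends left a median of -0.35. Ndufa1 (X chromosome from 37187588 to 37191163, minus strand), a small membrane-spanning subunit, had 215, 277 and 142 FPKM in flox livers against 119, 110 and 115 FPKM in HKO livers. The difference was -0.83 on the log2 scale (SE 0.28, limma adjusted p = 0.209, from 0.0142 without flox 3 to 0.551). Ndufa8, on the side facing the intermembrane space, had 182, 289 and 159 FPKM in flox livers against 143, 129 and 131 FPKM in HKO livers. The groups did not overlap here either, by -0.59 (SE 0.27, limma adjusted p = 0.264, from 0.0426 without flox 3 to 0.988). With length and GC trends removed the value of Ndufa8 was 0.01, whereas that of Ndufa1 was -0.72. Ndufa3 was the member whose groups overlapped, with flox 3 at 60.5 and HKO 1 at 62.7 FPKM.

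The other membrane-arm accessory subunits had every HKO library below every flox library for 5 of 5 on the proximal arm (median -0.64) and 11 of 11 on the distal arm (median -0.60). The same held for 16.7% of all tested genes and 41.8% of the short, abundant ones. These medians were -0.37 and -0.23 with length and GC trends removed. Ndufa11, on the proximal arm (chromosome 17 from 56717762 to 56724248, plus strand), had 34.5, 68.2 and 21.95 FPKM in flox livers against 17.6, 18.02 and 18.1 FPKM in HKO livers. The HKO libraries were nearly equal while flox spanned a wide range (-1.04, SE 0.40, limma adjusted p = 0.224, from 0.0181 without flox 3 to 0.611). Ndufab1, the mitochondrial acyl carrier protein, had 9.36, 9.70 and 10.9 FPKM in flox livers against 7.73, 7.72 and 7.75 FPKM in HKO livers. Here flox 3 was the highest library (-0.35, SE 0.18, limma adjusted p = 0.305, from 0.0252 without flox 3 and with length and GC trends removed to 0.875). A pseudogene, Ndufab1-ps, had 17.9 to 28.4 FPKM, and how reads shared between the copies were counted is not given. Ndufb5 had 17.0, 18.01 and 16.9 FPKM in flox livers against 12.1, 12.9 and 12.3 FPKM in HKO livers. Its flox libraries were also close together, 17.3 ± 0.622 FPKM against 12.4 ± 0.388 FPKM in HKO (SD, n = 3), a log2 fold change of -0.46 (SE 0.18, limma adjusted p = 0.222, from 0.0285 without flox 3 and with the gene length trend removed to 0.713). Ndufb2 had the lowest mean level of the subunits other than Ndufs3, with 2.09, 2.55 and 1.76 FPKM in flox livers against 1.67, 1.35 and 1.46 FPKM in HKO livers (-0.40, SE 0.22, limma adjusted p = 0.320, from 0.0249 without flox 3 and with length and GC trends removed to 0.697). The table length of Ndufb2 is 5628 bases and its shortest principal transcript 455 bases, so its FPKM understates the level per transcript length.

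**Figure D2:**
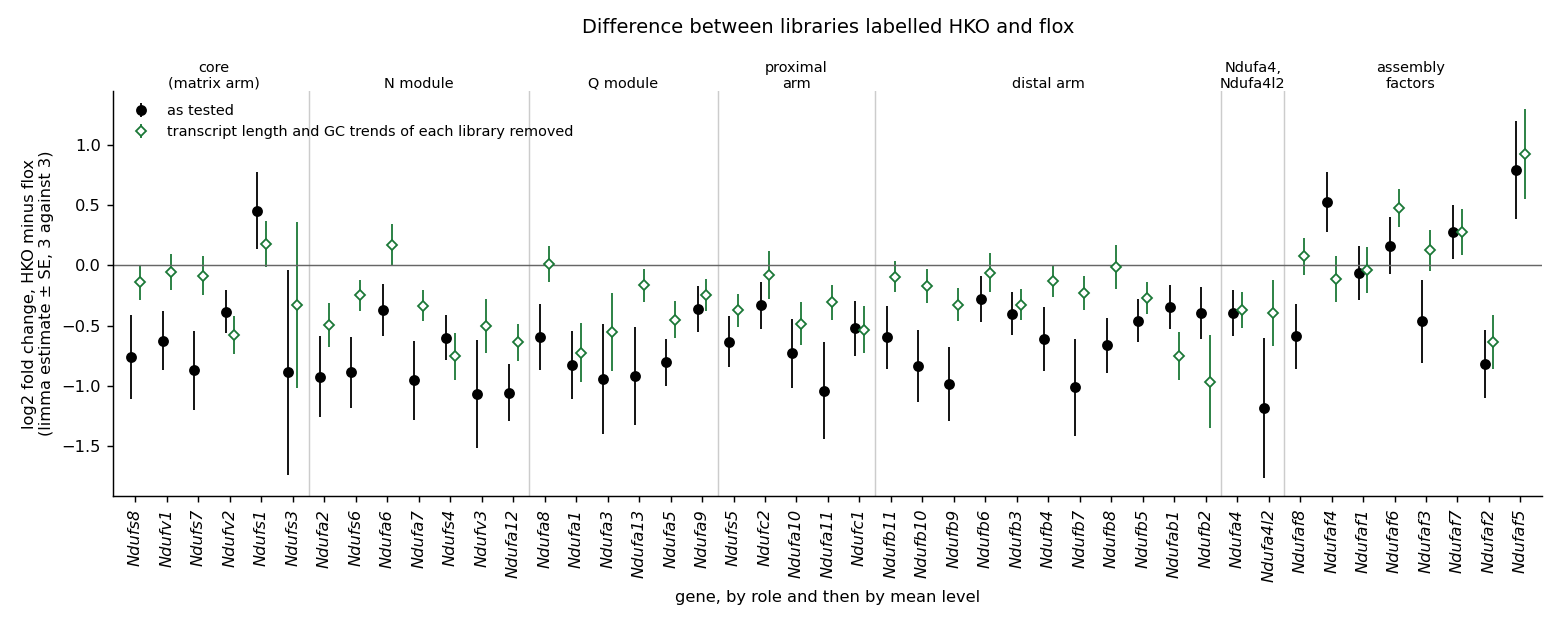
Log2 fold change, HKO minus flox, with its standard error for 45 of the 46 genes as tested (black circles) and with the transcript length and GC trends of each library removed (green diamonds). Of the 37 subunits drawn 36 lie below 0 as tested and 34 after removal, and the assembly factors lie on both sides of 0.

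The 2 genes named Nduf that are not complex I subunits had fold changes below 0, and neither passed. Ndufa4, of cytochrome c oxidase, had 199, 226 and 191 FPKM in flox livers against 158, 154 and 155 FPKM in HKO livers. Its groups did not overlap (-0.39, SE 0.19, limma adjusted p = 0.280, from 0.0530 to 0.868), and the value was 0.20 with quantile normalization. Ndufa4l2, a paralog induced by low oxygen in other cells, had 3.35, 10.6 and 1.55 FPKM in flox livers against 1.32, 1.33 and 1.76 FPKM in HKO livers. Its groups overlapped and flox 2 stood far above, and its log2 fold change of -1.18, the largest of the 38, had an SE of 0.58 (limma adjusted p = 0.283, from 0.0270 without flox 3 to 0.773). Without flox 2 it was -0.52.

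The assembly factors lay on both sides of 0. Ndufaf2, which binds the late intermediate that lacks Ndufa12, was the lowest relative to flox, with 5.98, 7.37 and 3.59 FPKM in flox livers against 2.76, 3.10 and 2.75 FPKM in HKO livers. All HKO libraries were below all flox libraries (-0.82, SE 0.28, limma adjusted p = 0.210, from 0.0141 without flox 3 to 0.556). Of its table length 65.6% overlaps exons of another gene on the opposite strand, B230220B15Rik. The value of Ndufaf2 may have gained or lost reads there, since how reads in overlaps were counted is not given. Ndufaf8, a small protein that works with Ndufaf5, had 30.6, 47.8 and 26.1 FPKM in flox livers against 24.5, 20.2 and 21.96 FPKM in HKO livers. It was lower without overlap (-0.59, SE 0.27, limma adjusted p = 0.263, from 0.0423 without flox 3 to 0.984), and was at 0.07 with length and GC trends removed. Ndufaf4 (chromosome 4 from 24898083 to 24905001, plus strand), which acts in the quinone module with Ndufaf3, had 10.6, 8.47 and 14.2 FPKM in flox livers against 18.3, 15.2 and 14.3 FPKM in HKO livers. Every HKO library was above flox, though HKO 3 and flox 3 were nearly equal, and removal of length and GC trends turned the value from 0.53 (SE 0.25, limma adjusted p = 0.272, from 0.0319 without flox 3 to 0.983) to -0.11.

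The other 5 assembly factors overlapped between groups. Ndufaf5, which modifies Ndufs7 by hydroxylation, had 4.38, 1.98 and 1.17 FPKM in flox livers against 3.37, 4.89 and 4.50 FPKM in HKO livers, and Ndufaf7, a methyltransferase, had 7.71, 6.88 and 4.90 FPKM in flox livers against 7.90, 8.13 and 7.53 FPKM in HKO livers. Both had HKO means above flox, by 0.79 (SE 0.41) and 0.28 (SE 0.23) on the log2 scale (limma adjusted p = 0.298 and 0.469). Ndufaf6, an early factor of the quinone module, had 9.62, 13.5 and 8.61 FPKM in flox livers against 13.4, 10.9 and 11.0 FPKM in HKO livers. Ndufaf1, of the membrane-arm assembly complex, had 15.7, 15.1 and 10.3 FPKM in flox livers against 12.3, 13.4 and 12.9 FPKM in HKO livers. Their values were 0.16 (SE 0.24) and -0.06 (SE 0.23) (limma adjusted p = 0.687 and 0.874). With length and GC trends removed Ndufaf6 was at 0.48 (SE 0.16, limma unadjusted p = 0.0205, adjusted p = 0.212), and its adjusted p ran from 0.0746 to 0.920 over the alternatives. Ndufaf3 had 9.19, 17.8 and 7.16 FPKM in flox livers against 7.06, 8.56 and 7.06 FPKM in HKO livers, where flox 2 stood apart (-0.46, SE 0.34, limma adjusted p = 0.434).

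Summed over the 36 nuclear subunits of complex I (without Ndufa4 and Ndufa4l2), levels were 2772, 3987 and 2198 FPKM in flox livers 1, 2 and 3 against 1792, 1718 and 1746 FPKM in HKO livers 1, 2 and 3. The sum was 2986 ± 914 FPKM in flox and 1752 ± 37.0 FPKM in HKO (SD, n = 3), with no overlap, and the two-sided exact permutation test gave p = 0.1, which is the smallest for 3 against 3. As a share of all reads assigned to genes they took 0.374%, 0.472% and 0.259% in flox and 0.293%, 0.271% and 0.257% in HKO. Here flox 3 lay within the HKO range (exact permutation p = 0.3). The library size by which FPKM were scaled differed from these reads and was larger in every HKO library than in every flox library. The 2 measures are thus on unlike scales. The sum over 8 assembly factors was 96.2 ± 21.5 FPKM in flox and 85.3 ± 3.91 FPKM in HKO (SD, n = 3, exact permutation p = 0.6). The ratio of the subunit sum to the assembly factor sum was 29.6, 33.6 and 28.9 in flox and 19.99, 20.4 and 21.3 in HKO. This ratio was lower in every HKO library and nearly even within each group (exact permutation p = 0.1, the smallest possible). It was taken without removal of trends, and the 2 sets differ in the properties on which the libraries differ. The median transcript had 52.2% GC and 921 bases over the 38 subunits, against 47.3% and 1308.5 bases over the assembly factors. Ndufaf8, at a mean of 28.5 FPKM, weighs most in the assembly factor sum.

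For subunits encoded in mitochondrial DNA the direction depended on the scaling. Of 7 mt-Nd genes, 4 had a fold change below 0 (median -0.25) and 0 passed the threshold in limma. With an unadjusted p under 0.05, 1 was lower and 0 higher, against 10.8% and 10.1% of all genes. The median is the value of mt-Nd3. Mt-Nd3 and mt-Nd4l averaged 20.5 FPKM, with as few as 98 and 25 reads in a library. The other mt-Nd genes averaged at least 1384 FPKM. Both low genes weigh as much as the others in the counts and medians here. With length and GC trends removed 6 of 7 were below 0 (median -0.70), without flox 2 also 6 of 7 (median -0.24), and with quantile normalization 2 of 7 (median 0.36). Mt-Nd6, encoded on the other strand from the rest, had the smallest p, with 3215, 3105 and 2854 FPKM in flox livers against 1847, 1694 and 1809 FPKM in HKO livers. All its HKO values lay below flox and flox 2 was not extreme (-0.78, SE 0.21, limma adjusted p = 0.179, 0.0164 without flox 3, and from 0.0130 to 1 over the alternatives). Mt-Nd4 had the next smallest, with 4324, 3502 and 3580 FPKM in flox livers against 3109, 2415 and 3220 FPKM in HKO livers (-0.39, SE 0.25, limma adjusted p = 0.372, from 0.0257 without flox 3 and with length and GC trends removed to 0.988). The ratio of the summed mitochondrial to the summed nuclear subunits was 6.58, 3.17 and 9.57 in flox and 7.69, 7.82 and 8.62 in HKO. Flox spanned the whole HKO range, and flox 2 was lowest (exact permutation p = 0.5).

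**Figure D3:**
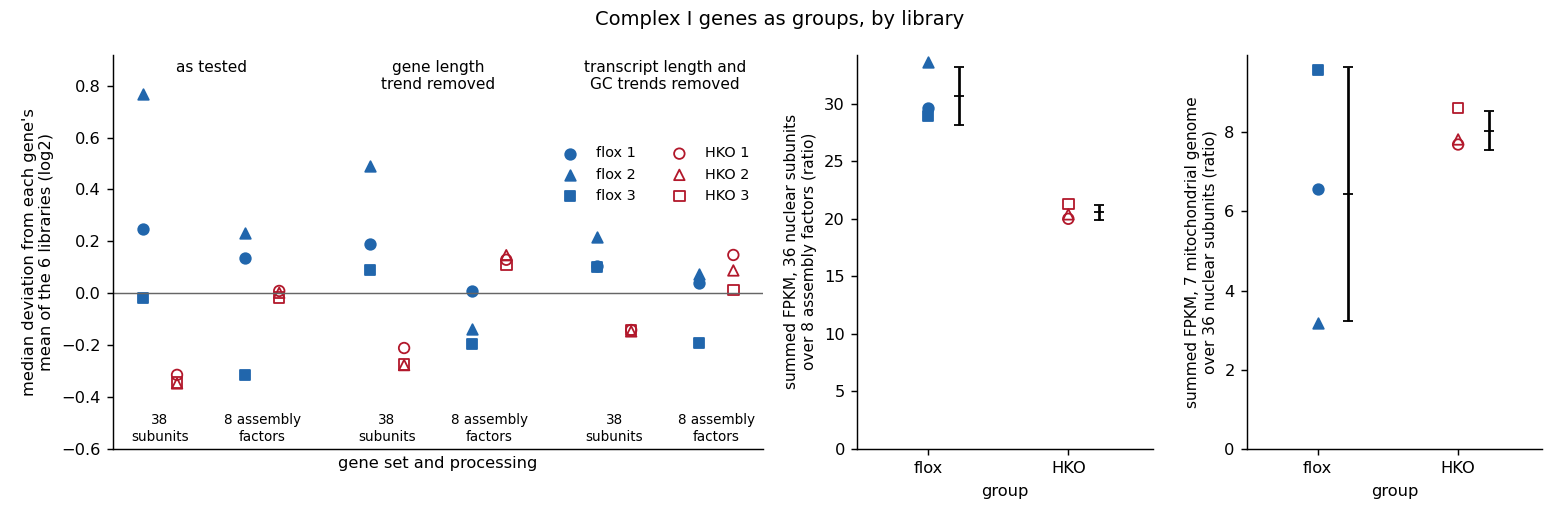
Left, median log2 deviation of the 38 subunits and the 8 assembly factors in each library, as tested and with trends removed, in flox (filled) and HKO (open). Middle and right, ratios of summed FPKM by library with group means and SD (n = 3): subunits over assembly factors was 28.9 to 33.6 in flox and 19.99 to 21.3 in HKO, and mitochondrial over nuclear subunits overlapped between groups.

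Base composition ran with the size of the difference. Across 37 subunits (Ndufs3 left out), the log2 fold change went down with the GC content of the principal transcript (Pearson r -0.68, Spearman rho -0.69), as a description over genes that share the same 6 libraries. It was less tied to the log2 transcript length (r 0.43), the log2 table length (r 0.33) or the log2 mean level (r -0.13). The deviation of flox 2 went up with GC (r 0.77) and that of flox 3 went down (r -0.59), and the fold change without flox 2 had an r of -0.39. With transcript length and GC trends removed over all genes, the fold change of the subunits went up with GC (r 0.44, rho 0.42). The 14 subunits of at least 54% GC had a median of -0.90, the 13 from 48% to 54% of -0.61 and the 10 below 48% of -0.40. In 1114 other protein-coding genes with transcripts of at most 2000 bases and a mean of at least 20 FPKM, the medians in the same ranges were -0.76, -0.49 and -0.01. These ranges were set after values were seen.

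**Figure D4:**
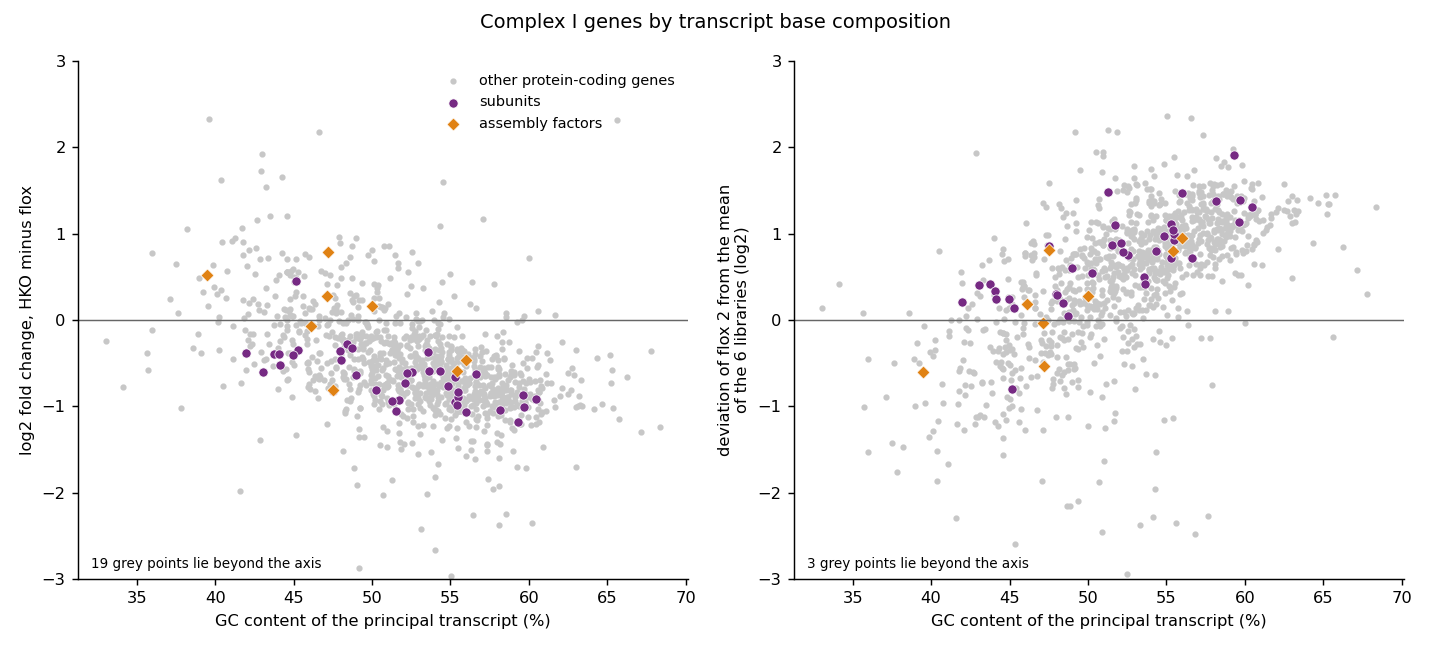
GC content of the principal transcript against the log2 fold change (left) and against the deviation of flox 2 from the mean of the 6 libraries (right), for 37 subunits, 8 assembly factors and 1114 other protein-coding genes of at most 2000 transcript bases and at least 20 FPKM. The fold change of subunits goes down with GC (r -0.68) while flox 2 goes up (r 0.77), and 19 and 3 grey points lie beyond the axes.

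With each library's trends removed, the subunit median was smaller and stayed below 0. With the gene length trend removed, the subunit median was -0.55, with 37 of 38 below 0 and 16 lower at an unadjusted p under 0.05 (10.4% of all genes). With transcript length and GC trends removed, the median was -0.32, with 35 of 38 below 0 and 15 lower at an unadjusted p under 0.05 (9.32%), while the 740 short, abundant genes had a median of -0.13. With the mean level trend removed as well, the medians were -0.19 and 0.00, and 27 of 38 subunits were below 0. In these limma fits 0 subunits passed the adjusted threshold, which 0.00725% of all genes passed each way with the gene length trend removed, 0.0149% lower and 0.0224% higher with transcript length and GC, and 0.00746% lower and 0.0224% higher with the mean level as well. With quantile normalization the median was -0.29, with 30 of 38 below 0 and 1 lower at an unadjusted p under 0.05 (9.89% of all genes). After removal of length and GC trends, the per-library median of the subunits was 0.10, 0.21 and 0.10 in flox and -0.14, -0.15 and -0.14 in HKO. Every HKO library thus remained below every flox library on this measure. Assembly factors had medians of 0.32, 0.10 and 0.14 under the same removals.

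Of the 27 subunits lower without flox 3, 16 were also lower without flox 3 when the gene length trend was removed, among 18 called (17.2% of all genes). Of these, 5 were also among the 10 called lower with transcript length and GC trends removed (10.6% of all genes): Ndufa1, Ndufa2, Ndufa10, Ndufa12 and Ndufv3. Ndufa10, a proximal-arm subunit of the nucleoside kinase family, had 55.4, 82.1 and 40.8 FPKM in flox livers against 34.4, 33.9 and 34.2 FPKM in HKO livers. Among assembly factors Ndufaf2 was lower in all of these fits. All of them leave out flox 3 and use the same other libraries, so their agreement is not independent support. Why flox 3 differs from the other flox libraries was not tested.

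The median Pearson r between 595 pairs of 35 subunits was 0.91, against 0.21 for 28 pairs of assembly factors and 0.24 between subunits and assembly factors. These pairs share the 6 libraries and the position of flox 2. Outside the members, the genes with the pattern most like the subunit mean were Rps9, a ribosomal protein (262, 465 and 196 FPKM in flox livers against 143, 136 and 138 FPKM in HKO livers), Uqcr10, a subunit of complex III, and Fis1, a mitochondrial fission protein, each with r of at least 0.999 over 6 libraries. Of 5604 candidate genes 13.6% had an r of 0.95 or more, so such likeness was not particular to these genes.

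Among 11 other assembly factors with names outside the Nduf series, 6 had a fold change below 0 and 0 passed in limma. With an unadjusted p under 0.05, 1 was lower and 1 higher, near the shares over all genes (10.8% lower and 10.1% higher). Dmac2, of the distal membrane arm, had 9.995, 12.2 and 12.5 FPKM in flox livers against 7.89, 5.72 and 7.67 FPKM in HKO livers (-0.68, SE 0.22, limma adjusted p = 0.202). Tmem186, of the membrane-arm assembly complex, ran the other way, with 4.60, 3.39 and 3.87 FPKM in flox livers against 7.06, 5.99 and 5.56 FPKM in HKO livers (0.59, SE 0.21, limma adjusted p = 0.211, from 0.0466 without flox 3 and with the gene length trend removed to 0.653). Neither overlapped between groups. Of 11 regulators of respiratory chain genes, 3 were below 0 and 0 passed in limma. With an unadjusted p under 0.05, 1 was lower and 0 higher, against 10.8% and 10.1% of all genes, so 1 lower gene was near the share over all genes. The 1 lower was Esrra, the estrogen-related receptor alpha that acts on genes of oxidative phosphorylation. Esrra had 30.1, 52.3 and 33.7 FPKM in flox livers against 15.4, 20.5 and 17.3 FPKM in HKO livers. Its groups did not overlap (-1.07, SE 0.27, limma adjusted p = 0.165, from 0.0241 without flox 3 to 0.586 over the alternatives). Its value was -0.54 with length and GC trends removed and -0.33 when flox 3 was left out as well, the smallest of the alternatives. Polrmt, the mitochondrial RNA polymerase, had 6.95, 12.8 and 7.66 FPKM in flox livers against 5.62, 5.74 and 5.32 FPKM in HKO livers (-0.62, SE 0.27, limma adjusted p = 0.244).

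Some marker lists of other liver cells differed between groups beside the subunits, and others overlapped. The summed level of 7 macrophage and Kupffer cell markers was 488 to 798 FPKM in flox livers and 292 to 408 FPKM in HKO livers, and that of 6 neutrophil markers 24.5 to 53.5 FPKM in flox livers and 4.20 to 5.88 FPKM in HKO livers, with Ly6g at 0 throughout. That of 5 cholangiocyte markers was 40.8 to 66.8 FPKM in flox livers and 100 to 244 FPKM in HKO livers. The groups overlapped for stellate cell and fibroblast markers (84.8 to 101 FPKM in flox livers, 93.8 to 110 FPKM in HKO livers). They also overlapped for endothelial markers (53.0 to 112 FPKM in flox livers, 42.2 to 56.0 FPKM in HKO livers). B and T cell markers overlapped as well (1.21 to 6.76 FPKM in flox livers, 1.26 to 2.17 FPKM in HKO livers). The part of these cells in the result was not tested. The locus AC121965.1, which GENCODE M21 calls Ndufb1-ps, is no member and had 49.4, 42.0 and 27.9 FPKM in flox livers against 23.7, 22.4 and 23.0 FPKM in HKO livers (-0.74, SE 0.26, limma adjusted p = 0.211). Of the members, 30.0% of the table length of Ndufa13, 39.0% of Ndufb6 and 12.9% of Ndufb11 overlap exons of a gene on the other strand. For Ndufb9, 19.5% overlaps one on the same strand. Their values may have gained or lost reads there, since how reads in overlaps were counted is not given.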

How the data were processed

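RNA sequencing of 6 mouse livers was analysed, in groups taken from the labels. The authors deposited FPKM in 1 table per group, scaled to gene length and library size per the file headers. TopHat2, HTSeq 0.6.1 and GRCm38.p6 are named in the submitters' processing notes, and use of strand is not given in the sources used here. Multiplied by gene length, 100% of deposited FPKM values gave whole reads (tolerance 0.01), 16769082 to 20633215 per library. Values were taken as log2(FPKM + 0.5). The 13787 of 54320 genes that averaged 0.5 FPKM or more were compared with limma 3.58.1 in R 4.3.3 (group as the term, variances moderated along a trend with level, two-sided, Benjamini-Hochberg adjusted p under 0.05). Single sums and ratios were compared by exact permutation. Trends were lowess fits (span 0.3) of each library's deviation on log2 length, GC content and mean level. Transcript length and GC came from principal transcripts of GENCODE M21 (13405 tested genes). The fit was tested on simulated data. Figures used Python 3.11.15, pandas 2.3.3, numpy 2.4.6 and matplotlib 3.10.9.

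Members, roles and lists were chosen with earlier results of these data known. Values by library are given for Elavl1, the core subunits, assembly factors, Ndufa4 and Ndufa4l2, the 3 other subunits with the highest and the 3 with the lowest mean level, the 3 with the most negative difference, and the 2 genes with the smallest p in each companion list. The 3 genes most like the subunit mean were sought among protein-coding genes averaging at least 5 FPKM. Ndufa3, Ndufa6, Ndufa10, AC121965.1 and the promoters shown were picked after their values or matches were seen. 1 gene that these rules name is not reported here and enters counts and sums only. In all, 36 alternatives were run. Same-numbered flox and HKO libraries were not paired, with correlations of their deviations of -0.04, -0.09 and 0.07.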

Additional observations from a re-analysis of the deposited data

Results flagged for a closer look

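An unnamed gene on the patch scaffold that overlies the Ndufs3 position, described in the tables as a respiratory-chain NADH dehydrogenase subunit, is outside the members and reached 46.9 FPKM in flox 2. Flox 1 held 2.82 FPKM, flox 3 held 21.3 FPKM, and the HKO livers 1, 2 and 3 held 46.6, 16.6 and 2.34 FPKM. It was noted because signal stood here while Ndufs3 itself was listed at 0 in 4 of the 6 libraries.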

How the results depend on the processing

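Of the values for named members, 803 kept their direction and side of the threshold over the 36 alternatives, 60 reversed and 35 newly passed, all 35 without flox 3. Among the counts and medians, 292 were close to the values reported and 68 moved. Percentages give the share of all genes lower at an unadjusted p under 0.05. Upper quartile scaling gave 11 subunits lower at that p (6.76%, 19 as tested) and Ndufaf1 at 0.072, with the median of all genes at 0.11. Quantile normalization gave 1 (9.89%), with Ndufa4 at 0.20, Ndufv2 at 0.012 and Ndufaf1 at 0.11. Moderation without a trend called 2 genes higher in all. Voom on recovered reads gave 1 subunit lower (2.65%) and 1 higher, 0 genes lower in all, an assembly factor median of 0.35 and Ndufaf1 at 0.23. Removing the gene length trend put Ndufaf1 at 0.20, as did the transcript length trend (0.20), which left 12 subunits (10.3%). Removing transcript length and GC trends called 3 genes higher and 2 lower in all and reversed Ndufa8 (0.013), Ndufaf3 (0.12), Ndufaf4 (-0.11) and Ndufaf8 (0.074). Removing the mean level trend too called 3 higher, left 5 subunits (8.78%) and a subunit median of -0.19, and reversed Ndufa8 (0.20), Ndufaf3 (0.14), Ndufaf4 (-0.076), Ndufaf8 (0.15), Ndufs7 (0.043), Ndufs8 (0.015) and Ndufv1 (0.079).

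With the replicate block, 0 genes were lower in all and 12 subunits were lower at an unadjusted p under 0.05 (7.80% of all genes). With the block and the gene length trend removed these were 0 and 4 (7.37%), with Ndufaf1 at 0.20, and with the block and transcript length and GC trends removed 0 and 7 (6.72%), with Ndufa8 at 0.013, Ndufaf3 at 0.12, Ndufaf4 at -0.11 and Ndufaf8 at 0.074. The numbers do not pair the samples.

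Leaving out 1 library, with or without trend removal, gave 0 to 2910 genes higher and 0 to 2684 lower. Among these calls were 0 to 1 subunits higher and 0 to 27 lower, and 0 to 1 assembly factors higher and 0 to 2 lower. With an unadjusted p under 0.05, 1 to 32 subunits were lower and 0 to 1 higher. The share of all genes lower at that p also ran widely, from 4.21% (without HKO 2) to 25.9% (without flox 3). The subunit median ran from -0.80 to -0.25. Ranges were -0.77 to 0.10 for Ndufa8, -0.25 to 0.29 for Ndufaf1, -0.73 to 0.22 for Ndufaf3, -0.24 to 0.71 for Ndufaf4, -0.77 to 0.18 for Ndufaf8, -1.41 to 0.47 for Ndufs3, -1.11 to 0.050 for Ndufs7 and -0.79 to 0.047 for Ndufv1. The cause of these shifts was not tested.

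Of the planned count-based fits, voom on the recovered reads was run and another was not. With 3 libraries a group, precision is limited by the spread of the flox libraries.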
